A study of Mus musculus with 6 samples.

Results

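The genes of oxidative phosphorylation were examined in single hypothalamic cells. Members were all gene symbols of the deposited raw count table that begin with mt- or with Nduf, Cox4 to Cox8, Uqcr, Sdha to Sdhd, or Atp5. The rule selected 108 of 16411 listed genes. Of these, 13 are encoded in mitochondrial DNA and 95 in the nucleus, and the nuclear members comprise 82 subunits and 13 assembly factors. By symbol, 38 nuclear subunits were assigned to complex I, 4 to complex II, 8 to complex III, 17 to complex IV and 15 to complex V. The cells came from male ob/ob mice, a strain that lacks functional leptin and is obese and diabetic, aged 11 weeks. An intracerebroventricular (icv) injection of 3 µg FGF1 R50E, in which a single residue of fibroblast growth factor 1 is changed, was given to each mouse 5 days before it was killed. The labels list 6 such samples of 1 mouse each. Cells of mice 3, 4, 30 and 34 were analysed, mice 12 and 37 were not analysed here, and 12 further libraries in the table that are not among the labelled samples were not used. All labelled samples share the genotype and the treatment, so the comparisons below are between cell types of the same mice and give no effect of FGF1 R50E or of the ob allele.

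In oxidative phosphorylation, complexes I to IV pass electrons to oxygen, complexes I, III and IV pump protons across the inner mitochondrial membrane, and complex V, the ATP synthase, uses the proton gradient to make ATP. Core subunits of complexes I, III, IV and V are encoded in mitochondrial DNA and transcribed inside the organelle as long precursor RNAs, whereas complex II and all remaining subunits are encoded in the nucleus. Complexes I, III, IV and V therefore need transcripts from both genomes. In the brain, astrocytes and oligodendrocytes are also known for their use of glycolysis.

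The 4 mice gave 20151 cells, with 3005 to 7386 cells and 3299971 to 8856079 unique molecular identifiers (UMIs, counted molecules) per mouse and a median of 909 to 1066 UMIs per cell. Each of 8 cell types had 20 or more cells in all mice and was used under its deposited label: 5909 astrocytes, 4566 oligodendrocytes, 4490 tanycytes, 1530 ependymal cells, 1266 endothelial cells, 1261 oligodendrocyte precursor cells (OPCs), 681 committed oligodendrocyte precursors (COPs) and 380 microglia. Each list of defining markers was higher in its own type than in any other of the 8. Transcripts of mural cells, the pericytes and smooth muscle cells of vessels, were also abundant under the endothelial label, at 4115 CPM (UMIs of a gene or list scaled to a common total per mouse and type) against 40.8 to 151 CPM in the other 7 types. Neuronal markers stood at 140 to 338 CPM in all types, and no type was labelled as neurons. Summed counts held 44756 to 2319177 UMIs per mouse and type. A total of 194 cell barcodes occurred in more than 1 of the 4 libraries. Mice 4 and 30 gave 3180 and 3005 cells against 7386 and 6580 in mice 3 and 34, and the composition of their mitochondrial transcripts stood apart, as described below. No cell held more than 20% mitochondrial UMIs (highest 19.98%), a limit that bounds every mitochondrial value from above.

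Several transcription factors are known regulators of nuclear respiratory genes, among them NRF1, the ETS-family factors to which GABP belongs, YY1 and the estrogen-related receptor alpha. The windows from 250 bases before to 50 after each gene start in the RefSeq promoter table (GRCm38.p6) were searched on both strands for GCGCATGC (NRF1), CCGGAAG (ETS), AAGATGGC (YY1) and TCAAGGTCA (ERR alpha). None of these 4 strings contains another. A window was found for 80 of the 95 nuclear members, 3 of them through a synonym. The NRF1 string occurred in 12 of the 80 (15%), against 3.05% of all 27025 genes with a window and 3.94% of the 17492 protein-coding genes among them. The ETS string occurred in 20 (25%) against 9.93% of all and 12.9% of protein-coding genes, the YY1 string in 11 (13.75%) against 3.19% and 3.57%, and the ERR alpha string in 2 (2.5%) against 0.466% and 0.377%. A match describes the letters in the window and not a bound site. To show what these matches look like, 5 stretches that lie upstream of annotated exons are given in the gene's own orientation, with the matched string, or its reverse complement, in capitals. They are Ndufaf4 (complex I assembly, chr4:24897945-24898002, plus strand, match 105 bases before the start), Ndufa6 (complex I, chr15:82354342-82354399, minus strand, 75 bases), Atp5e (the epsilon subunit of complex V, chr2:174464172-174464228, minus strand, 95 bases), Uqcr11 (complex III, chr10:80406856-80406912, minus strand, 59 bases) and Atp5g3 (a c-subunit gene of complex V, chr2:73911345-73911403, minus strand, 43 bases). The first 2 hold the NRF1 string, the next 2 the ETS string and the last the ERR alpha string.
Ndufaf4: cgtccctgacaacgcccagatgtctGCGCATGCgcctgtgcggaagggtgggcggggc
Ndufa6: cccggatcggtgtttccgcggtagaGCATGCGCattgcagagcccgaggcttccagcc
Atp5e: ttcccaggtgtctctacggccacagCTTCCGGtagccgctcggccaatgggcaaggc
Uqcr11: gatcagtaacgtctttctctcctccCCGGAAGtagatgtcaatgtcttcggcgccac
Atp5g3: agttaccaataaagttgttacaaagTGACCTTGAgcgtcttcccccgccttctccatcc

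The first question was how large a share of the transcripts of each cell type the 13 mitochondrial genes took. They made up 14.6, 15.2, 15.7 and 14.6% of the UMIs of astrocytes in mice 3, 4, 30 and 34 (15.01% ± 0.562, SD, n = 4), the highest mean of the 8 types. Oligodendrocytes followed with 12.0, 13.4, 14.6 and 14.0% (13.5% ± 1.13), and microglia with 12.4, 14.3, 14.0 and 13.3% (13.5% ± 0.839). OPCs held 11.4, 13.3, 13.6 and 11.7% (12.5% ± 1.12), and tanycytes 11.6, 11.9, 12.9 and 11.6% (12.0% ± 0.591). Between these 5 types, neighbours in the order overlapped in their ranges over mice. Endothelial cells held 10.0, 10.4, 9.80 and 9.56% (9.94% ± 0.344) and ependymal cells 10.1, 9.82, 10.4 and 9.22% (9.90% ± 0.519), and every mouse's endothelial value lay below the lowest tanycyte value. COPs were last, at 7.28, 9.44, 8.997 and 7.46% (8.30% ± 1.08), and were below ependymal cells within 4 of 4 mice although the ranges of both overlapped. The limit of 20% reached the types unequally: 14.4% of astrocytes and 7.95% of oligodendrocytes held over 18% mitochondrial UMIs, against 0.294% of COPs. What cells above the limit would have added was not tested.

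**Figure D1:**
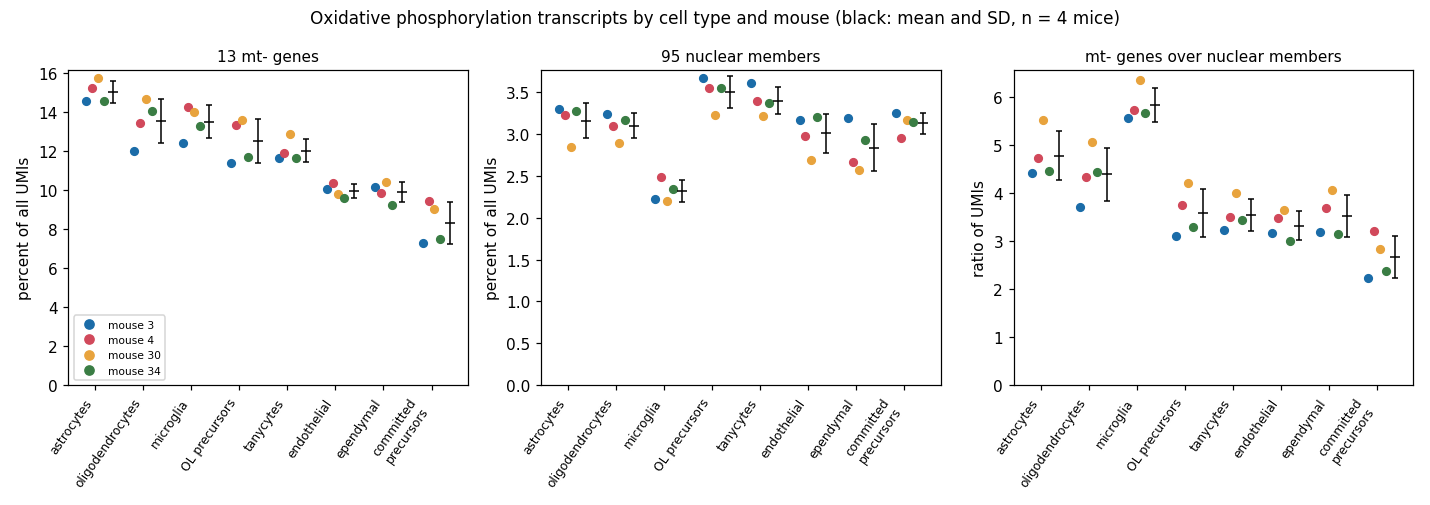
UMIs of the 13 mitochondrial genes and of the 95 nuclear members as percent of all UMIs, and the ratio of both, in 8 cell types. Each coloured point is 1 mouse and the black marks are the mean and SD (n = 4 mice); astrocytes led in the mitochondrial share (15.01%) and COPs were last (8.30%), while microglia had the lowest nuclear share (2.31%).

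The order of the types was nearly common to the single mitochondrial genes: 12 of 13 had their highest mean level in astrocytes, and 12 of 13 their lowest in COPs. For mt-Nd1, a core subunit of complex I (chrM:2751-3707), astrocytes held 11554, 14500.3, 14001 and 11845 CPM in mice 3, 4, 30 and 34, and ependymal cells 6875, 7319.7, 7623 and 6263 CPM. All 4 ependymal values were below all astrocyte values. By complex, the mitochondrial genes of complex IV took 7.34% ± 0.321 of the astrocyte UMIs, those of complex I 3.38% ± 0.493, those of complex V 3.15% ± 0.352 and mt-Cytb, the mitochondrial subunit of complex III, 1.15% ± 0.0386 (SD, n = 4). In COPs the corresponding shares were 4.05% ± 0.260, 1.79% ± 0.379, 1.81% ± 0.404 and 0.651% ± 0.0701. mt-Nd4l (chrM:9877-10173) overlaps mt-Nd4, and mt-Atp8 (chrM:7766-7969) overlaps mt-Atp6, on the same strand, so the division of reads within each of these pairs is uncertain. Whether reads were counted by strand, which bears on mt-Nd6 and mt-Nd5, is not given in the sources used here.

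Within the mitochondrial transcripts, mice 4 and 30 differed from mice 3 and 34 in every cell type. mt-Nd1, mt-Nd2, mt-Nd3, mt-Atp6 and mt-Atp8 took a larger share of the mitochondrial UMIs in both mice 4 and 30 than in either of mice 3 and 34 in 8 of 8 types. mt-Co1, mt-Co3 and mt-Cytb took a smaller share in 8 of 8. Averaged over the 8 types, mt-Nd2 made up 2.76, 4.45, 4.18 and 3.03% of the mitochondrial UMIs in mice 3, 4, 30 and 34, and mt-Co3 made up 18.9, 14.97, 14.9 and 18.8%. The same libraries also differed outside the mitochondrial genes. With astrocyte sums thinned to 421129 UMIs per mouse, the chi-square per degree of freedom over 6332 other genes was 1.36 between mice 3 and 34 and 1.76 between mice 4 and 30, against 2.49 to 3.40 for the remaining 4 pairs (1 is counting noise alone). These are values of single libraries. The division into mice 4 and 30 against mice 3 and 34 was read from these same values and was not tested. The 8 types are parts of the same 4 libraries, so their agreement is not independent. The labels give no batch to set beside the division. In the comparisons between cell types, each mouse was set against itself.

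**Figure D2:**
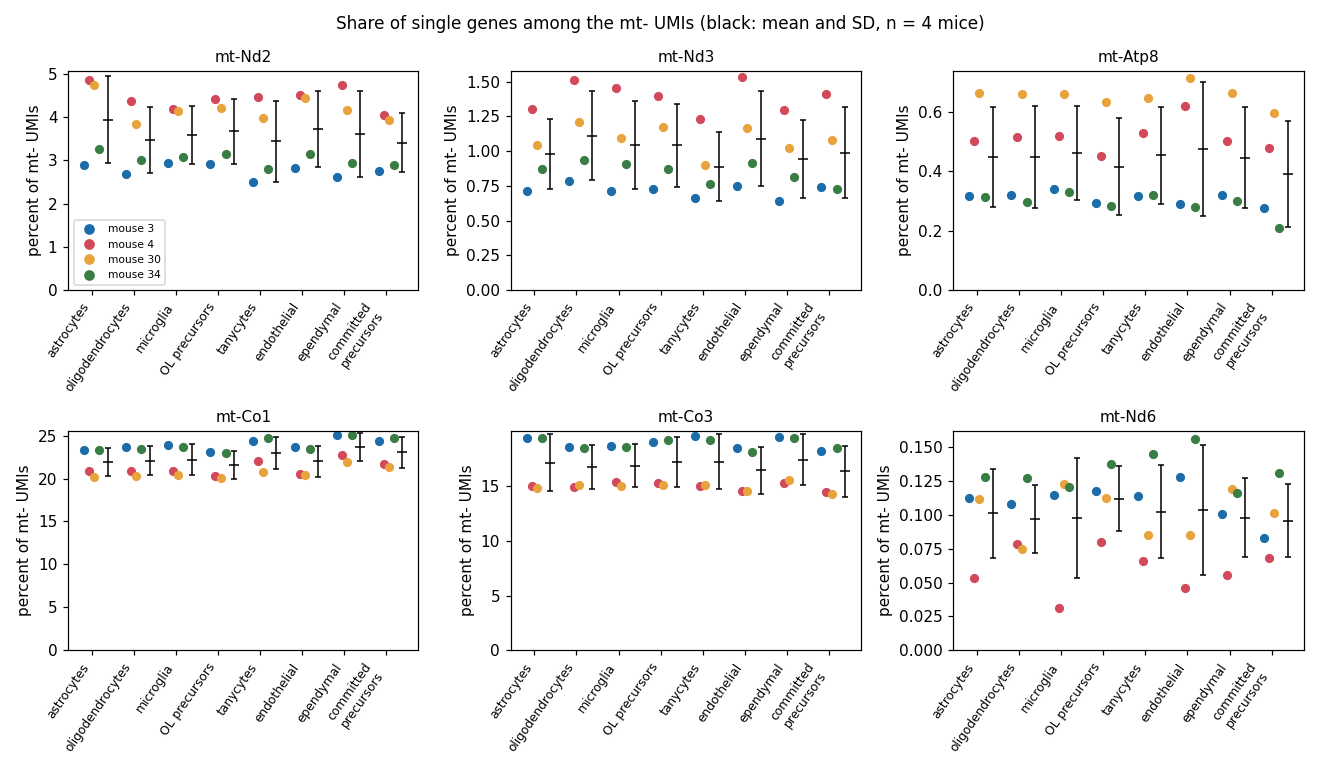
Share of 6 mitochondrial genes among the mitochondrial UMIs, in percent, by cell type. Coloured points are mice and black marks the mean and SD (n = 4 mice); for mt-Nd2, mt-Nd3 and mt-Atp8 mice 4 and 30 lie above mice 3 and 34 in 8 of 8 types, and for mt-Co1 and mt-Co3 below.

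The next question was whether the nuclear members followed the same order. They did not follow it closely. The 95 nuclear genes took the largest share of UMIs in OPCs (3.67, 3.54, 3.22 and 3.55% in mice 3, 4, 30 and 34; 3.50% ± 0.193, SD, n = 4), followed by tanycytes (3.39% ± 0.162), astrocytes (3.16% ± 0.210), COPs (3.13% ± 0.127), oligodendrocytes (3.10% ± 0.150), endothelial cells (3.01% ± 0.233) and ependymal cells (2.84% ± 0.279). Neighbours among these 7 types overlapped in range. Microglia were lowest, at 2.23, 2.49, 2.20 and 2.34% (2.31% ± 0.130), and all their values lay below the lowest ependymal value. Per UMI outside mitochondrial genes microglia again had the lowest mean (2.68% against 3.15% in ependymal cells), but the ranges of both types overlapped. Of the 82 nuclear subunits, 63 had their lowest mean level in microglia, 33 their highest in OPCs and 18 their highest in tanycytes. Complex I subunits took 0.729% ± 0.0441 of the microglial UMIs against 1.26% ± 0.0604 in tanycytes, and complex V subunits 0.480% ± 0.0245 against 0.689% ± 0.0324 (SD, n = 4). Complex II was the only complex with its highest nuclear share in COPs, at 0.0560% ± 0.00100 of the UMIs, against 0.0333% ± 0.00327 in microglia. Microglia of mice 3 and 30 also carried more red blood cell transcripts (2421 and 1298 CPM) than those of mice 4 and 34 (89.4 and 194 CPM), and the part of these in the nuclear share was not tested.

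The ratio of mitochondrial to nuclear UMIs of these genes set microglia apart. It was 5.57, 5.73, 6.36 and 5.67 in microglia of mice 3, 4, 30 and 34 (5.83 ± 0.356, SD, n = 4) and 4.42, 4.72, 5.52 and 4.45 in astrocytes (4.78 ± 0.514), and the 2 ranges did not overlap. Oligodendrocytes had a ratio of 4.39 ± 0.557. OPCs (3.59 ± 0.501), tanycytes (3.55 ± 0.330), ependymal cells (3.52 ± 0.437) and endothelial cells (3.32 ± 0.295) lay close together, with overlapping ranges. COPs had the lowest ratio, at 2.24, 3.20, 2.84 and 2.38 (2.67 ± 0.438). Mouse 30 had the highest ratio in 7 of 8 types and the lowest nuclear share in 7 of 8.

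Single members were then compared between 6 pairs of neighbouring cell types in the same mice with the edgeR quasi-likelihood test, and a gene passed at a Benjamini-Hochberg adjusted p under 0.05 over all genes tested. Because the cell types had been defined on the same counts, the numbers that passed are descriptive, and they are given beside the share of all tested genes that passed in the same direction. Of the 108 members, 94 were tested in every comparison, and Ndufaf6, Cox7b2 and Cox8b, with few UMIs, in none. Since members with low counts in both types drop out, counts refer to those tested.

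**Figure D3:**
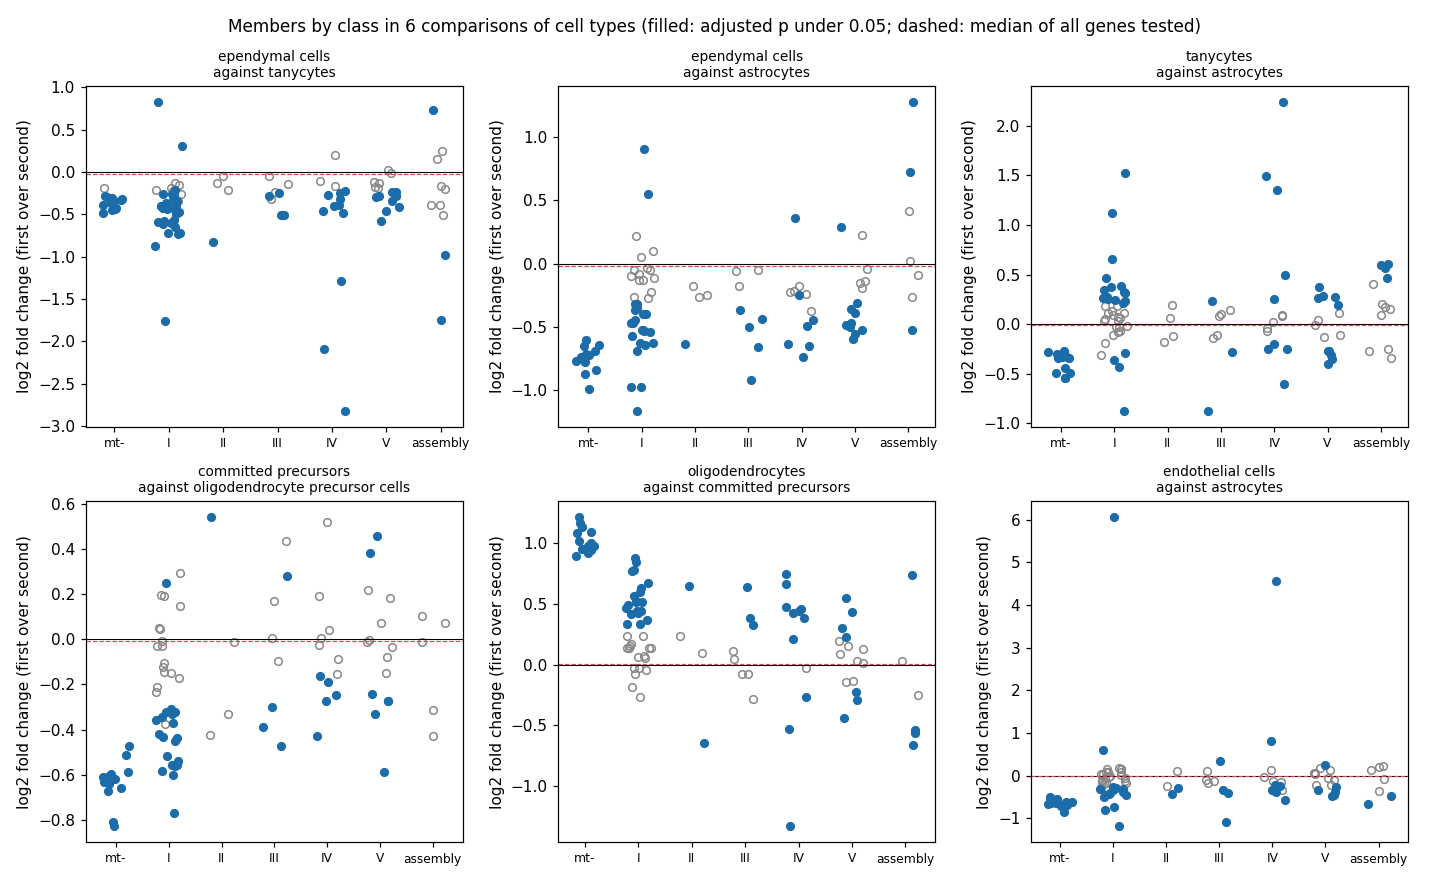
Log2 fold changes of the members tested in each of 6 comparisons, grouped as mitochondrial genes, nuclear subunits by complex and assembly factors. Filled points passed the adjusted p of 0.05, open points did not, and the dashed line is the median of all genes tested; the mitochondrial genes lie on the same side of that line in every comparison, below it in 5 and above it in oligodendrocytes against COPs.

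Ependymal cells carry the cilia that line the ventricles, and tanycytes are the elongated cells of the floor of the third ventricle. Genes of both genomes were lower in ependymal cells than in tanycytes. Of 101 members tested, 67 were lower and 3 higher, against 21.3% lower and 24.9% higher of all 8781 genes. The median log2 fold change of the members was -0.33, against -0.03 over all genes. Among the mitochondrial genes 12 of 13 were lower, with log2 fold changes of -0.49 to -0.19 over the 13, and mt-Nd4 (-0.19, adjusted p 0.0719 by edgeR) did not pass. These mitochondrial differences were small: without mouse 34 only 6 of 13 passed, without mouse 30 10 of 13, and without the mouse block 4 of 13, each with a median between -0.36 and -0.32. Of the nuclear members 55 of 88 were lower, among them 28 of 37 tested subunits of complex I, 11 of 14 of complex IV and 9 of 15 of complex V. Ndufc2, a membrane-arm subunit of complex I (chr7:97400003-97407802), held 950.1, 853, 1003 and 844 CPM in tanycytes of mice 3, 4, 30 and 34 against 338, 228, 289 and 280.3 CPM in ependymal cells. The groups did not overlap, and the log2 fold change was -1.75 ± 0.10 (SE; adjusted p 6.85e-20 by edgeR). A processed pseudogene, Gm16053, overlaps Ndufc2 on the same strand in the annotation and is not listed in the table. Ndufa1, another small complex I subunit, encoded on the X chromosome, held 363, 440.1, 480.3 and 348 CPM in tanycytes and 241, 219, 236 and 223 CPM in ependymal cells (log2 fold change -0.88 ± 0.10).

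The 3 members higher in ependymal cells all belong to complex I or its assembly. Ndufaf3, a complex I assembly factor, held 149, 144, 149.8 and 179 CPM in ependymal cells and 93.4, 78.3, 90.6 and 91.9 CPM in tanycytes, with no overlap (log2 fold change 0.73 ± 0.12; adjusted p 2.36e-06 by edgeR). Ndufab1, the acyl carrier protein of mitochondria and a complex I subunit, held 103, 179, 116 and 93.8 CPM in ependymal cells and 48.2, 112, 54.8 and 51.5 CPM in tanycytes, so that mouse 4 was high in both types (0.83 ± 0.14, higher in 4 of 4 mice). Ndufb5 passed with 0.30 ± 0.09 (adjusted p 0.00572 by edgeR), but not without mouse 3 (adjusted p 0.0514) or mouse 34 (0.0886). Impdh2 lies opposite to Ndufaf3 on the other strand, and its level was 55.6 CPM in ependymal cells, 62.4 CPM in tanycytes and 30.7 CPM in astrocytes. It was thus higher in ependymal cells than in astrocytes, as was Ndufaf3, and its part in the counts of Ndufaf3 was not tested. Tanycyte markers stood at 4783 CPM in ependymal cells against 11445 CPM in tanycytes, and their part in these differences was not tested.

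Against astrocytes, ependymal cells were lower in all 13 mitochondrial genes and in 43 of 83 nuclear members. Over 96 members tested, 56 were lower and 6 higher, where 27.7% of 8371 genes were lower and 29.2% higher. The median log2 fold change was -0.38 over the members and -0.02 over all genes. The mitochondrial fold changes ran from -0.996 (mt-Nd1, ± 0.11 SE, adjusted p 8.24e-08 by edgeR) to -0.60 (mt-Co1, ± 0.11). Ndufa5, a complex I subunit (chr6:24518666-24528013), was among the lowest nuclear members, with 209, 219, 198 and 183 CPM in ependymal cells and 387, 457, 402 and 429 CPM in astrocytes (log2 fold change -1.17 ± 0.12). Ndufa4, named for complex I but known as a subunit of complex IV, held 551, 439, 348 and 479.9 CPM against 948, 754, 682 and 902 CPM (-0.97 ± 0.11). Ndufs1, the largest iron-sulfur subunit of complex I, and Uqcrfs1, the Rieske protein of complex III, were also lower, by log2 fold changes of -0.98 ± 0.20 and -0.92 ± 0.18. Ndufaf3, at 54.9, 46.3, 70.0 and 68.0 CPM in astrocytes, again led the members higher in ependymal cells (log2 fold change 1.28 ± 0.14), followed by Ndufab1 (0.91 ± 0.14), Sdhaf4, an assembly factor of complex II (0.72 ± 0.13), and Ndufb5 (0.55 ± 0.11). Cox7a2l (0.36) no longer passed without mouse 3 (adjusted p 0.11) or mouse 34 (0.216), nor Atp5g2 (0.29) without mouse 30 (0.0672) or mouse 34 (0.102).

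All 13 mitochondrial genes were lower in tanycytes than in astrocytes, with a median log2 fold change of -0.34. The nuclear members had no common direction. Of 91 tested, 30 were higher, 15 were lower and 46 did not pass, with a median of 0.09, where 26.8% of all 10081 genes were higher and 24.7% lower, with a median of -0.01. Without mouse 3, 21 nuclear members were higher and 15 lower, with cells of at most 15% mitochondrial UMIs 24 and 17, and without the mouse block 19 and 6. Among the subunits of complex I, 15 of 38 were higher and 4 lower, and of those of complex V 5 of 15 were higher and 5 lower. Of the mitochondrial genes, mt-Nd6 (-0.30 ± 0.11) depended on single mice, with adjusted p of 0.0573 without mouse 3 and 0.0806 without mouse 30. Ndufc2 held 442, 393, 388 and 417 CPM in astrocytes, less than in tanycytes of any mouse (log2 fold change 1.12 ± 0.08; adjusted p 2.19e-15 by edgeR). Lower in tanycytes were Ndufs1 (84.3, 68.1, 50.03 and 58.5 CPM in astrocytes against 37.4, 40.8, 37.9 and 35.3 CPM; -0.88 ± 0.14), Uqcrfs1 (-0.87 ± 0.14) and Cox5a, a subunit of complex IV (-0.60 ± 0.15). Eef1b2, which lies opposite to Ndufs1 on the other strand, stood at 298 CPM in tanycytes and 197 CPM in astrocytes, and its part in the counts of Ndufs1 was not tested. Tanycytes and ependymal cells were each compared with the same astrocytes, so these comparisons share samples.

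Along the oligodendrocyte lineage, precursor cells (OPCs) become committed precursors (COPs) and then myelinating oligodendrocytes. COPs were lower than OPCs in all 13 mitochondrial genes, with log2 fold changes of -0.83 to -0.47 (median -0.62). Of 94 members tested, 45 were lower and 5 higher, against 23.8% lower and 22.6% higher of 4879 genes, with medians of -0.24 over the members and -0.01 over all genes. mt-Nd4l held 459.5 CPM in COPs of mouse 3, 716 in mouse 4, 771 in mouse 30 and 529 in mouse 34, against 895, 1193, 1350.2 and 952 CPM in OPCs (log2 fold change -0.81 ± 0.08; adjusted p 3.06e-15 by edgeR). Of the nuclear members 32 of 81 were lower and 5 higher, and leaving out mouse 34 reduced these 37 to 24, where the share of all genes that passed fell from 46.5% to 40.7%. Ndufb4, a complex I subunit, held 235, 194, 234.5 and 228 CPM in COPs and 420.4, 328, 348 and 441 CPM in OPCs (-0.77 ± 0.12). The following 3 members moved the other way in every setting with 1 mouse left out: Sdhb, Atp5g1 and Atp5e.

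Sdhb, the iron-sulfur subunit of complex II (chr4:140961203-140979193), was higher in COPs, with 313, 255, 258 and 329.6 CPM against 212, 159.9, 242 and 211 CPM in OPCs (log2 fold change 0.54 ± 0.13; adjusted p 0.000261 by edgeR). Atp5g1, one of 3 genes for the same mature c subunit of the ATP synthase ring, held 534, 445, 536 and 543 CPM in COPs and 418, 394, 318 and 385 CPM in OPCs (0.46 ± 0.10). Atp5e held 891, 1012, 957 and 996 CPM against 738, 836, 667 and 757 CPM (0.39 ± 0.08). For each of these 3 genes all COP values were above all OPC values. Uqcrq of complex III (0.28) did not pass without mouse 3 (adjusted p 0.101) or mouse 34 (0.0654), nor Ndufa3 of complex I (0.25) without mouse 3 (0.0857), mouse 30 (0.0813) or mouse 34 (0.0557).

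Oligodendrocytes were higher than COPs in all 13 mitochondrial genes, with log2 fold changes of 0.90 to 1.22 (median 1.00). Of 95 members, 50 were higher and 10 lower, against 28.3% higher and 26.8% lower of 6209 genes, and the median was 0.30 over the members and 0.01 over all genes. mt-Nd4l rose to 937, 1289, 1385 and 1110.4 CPM in oligodendrocytes of mice 3, 4, 30 and 34 (1.22 ± 0.09; adjusted p 3.32e-20 by edgeR). Among the nuclear members 37 of 82 were higher and 10 lower, with a median of 0.18. With library totals in place of TMM factors all genes shifted down together, to a median of -0.26, and the counts shifted with them to 17 nuclear members higher and 23 lower (median -0.09). The nuclear median thus lay above that of all genes under both scalings, and all 13 mitochondrial genes remained higher (median 0.73). The 5 oligodendrocyte markers alone took 39814 CPM in oligodendrocytes and 24607 CPM in COPs, and the part of such transcripts in the shift was not tested. Sdhb, at 164, 138, 132 and 174 CPM in oligodendrocytes, was below every COP value (-0.65 ± 0.11), as were Atp5e at 527 to 648 CPM (-0.44 ± 0.09) and Atp5g1 at 313 to 379 CPM (-0.30 ± 0.10, adjusted p 0.0068 by edgeR and 0.0637 by DESeq2). By edgeR, Atp5g1 also did not pass without the filter on low counts (adjusted p 0.0676) or in 1 fit over all cell types (0.0592). Thus the levels of Sdhb, Atp5e and Atp5g1 were higher in COPs than in the cells before and after COPs in the lineage, whereas the mitochondrial genes were lower than in both. For Atp5g1 the call against oligodendrocytes depended on the setting. The 2 comparisons share the COP samples. Ndufaf7 and Cox5a passed (-0.66 and -0.53) but not with single mice left out: the adjusted p reached 0.0892 for Ndufaf7 and 0.263 for Cox5a without mouse 3, and 0.0501 and 0.0568 without mouse 4.

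Endothelial cells were lower than astrocytes in all 13 mitochondrial genes (median log2 fold change -0.63). Of 98 members tested, 45 were lower and 6 higher, against 29.9% lower and 30.6% higher of 7616 genes, with medians of -0.22 and -0.02. Ndufs1 held 36.0, 12.998, 41.7 and 27.8 CPM in endothelial cells, below every astrocyte value (-1.19 ± 0.21; adjusted p 2.35e-06 by edgeR). Uqcrfs1 held 39.4, 47.7, 26.6 and 26.2 CPM against 61.6, 98.9, 58.0 and 71.5 CPM (-1.09 ± 0.20), and Ndufa12, a complex I accessory subunit, 276, 225, 213 and 258 CPM against 454, 361, 364 and 465 CPM (-0.81 ± 0.11). Ndufab1 (-0.73) no longer passed without mouse 3 (adjusted p 0.0603). Higher in endothelial cells were Cox7a2l, known for joining complexes III and IV into supercomplexes (509, 455, 455 and 435 CPM against 249, 280.1, 258 and 237 CPM; 0.83 ± 0.10), and Ndufa7 (743, 602, 740.0 and 799.7 CPM against 501, 414, 404 and 504 CPM; 0.60 ± 0.10). Atp5h (0.24) did not pass without mouse 3 (adjusted p 0.182) or mouse 34 (0.128).

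Both members with the largest fitted log2 fold changes in any comparison were alternative isoforms. Cox4i2 had too few counts to be tested in any other comparison and Ndufa4l2 in all but 1 other (tanycytes against astrocytes), so their fold changes are given as a description. Cox4i2, the isoform of cytochrome c oxidase subunit 4 known from lung and from oxygen-sensing cells, held 68.5, 121, 94.9 and 131 CPM under the endothelial label and 4.99, 6.42, 0 and 3.00 CPM in astrocytes (log2 fold change 4.57 ± 0.27). In the other 7 types its mean was at most 3.68 CPM. Ndufa4l2, a hypoxia-inducible relative of Ndufa4, held 239.8, 229.6, 216 and 258 CPM against 0.907, 6.42, 12.0 and 2.50 CPM (6.07 ± 0.24), and both genes had 0 of 395534 UMIs in microglia, which allows up to 7.58 CPM (3 counts; counting error only). Cox4i1, the common isoform, held 1733, 1438, 1218 and 1696 CPM under the endothelial label. Their mean of 1521 CPM lay within the range of the other types' means (1493 to 1960.4 CPM), and the values of mice 4 and 30 lay below that range. The endothelial label, however, held cells of more than 1 kind. When its cells were divided by whether endothelial or mural markers held more UMIs, 922 cells had more endothelial, 299 more mural and 45 equal UMIs, and 63 and 28 of the first groups were 1 UMI from the cut.

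**Figure D4:**
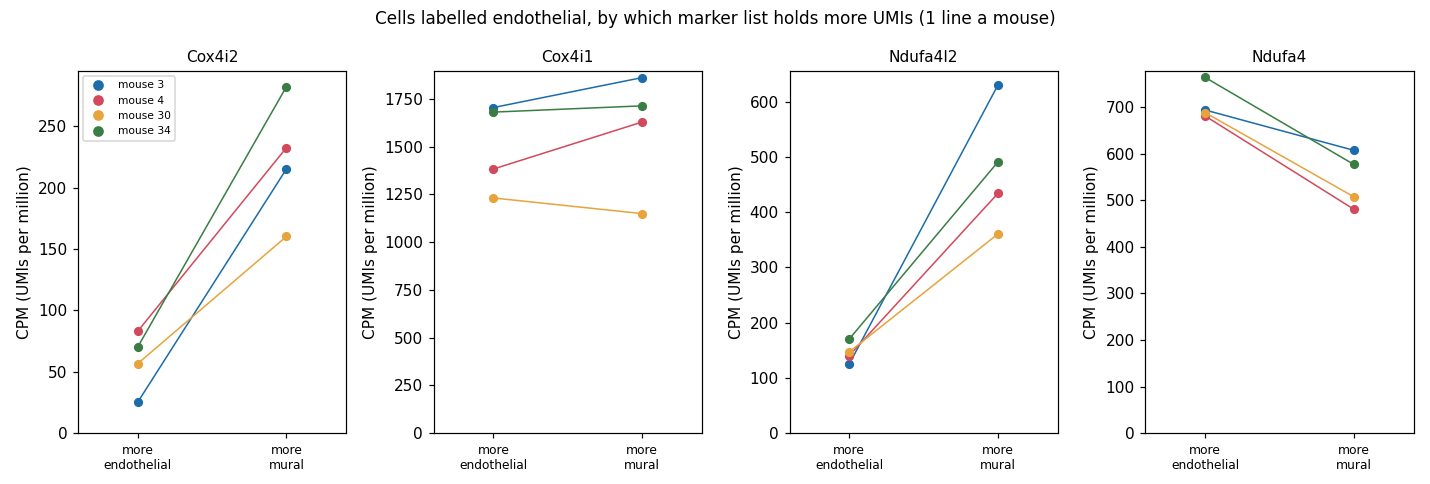
Levels of Cox4i2, Cox4i1, Ndufa4l2 and Ndufa4, in CPM, in cells under the endothelial label divided by whether endothelial or mural marker UMIs were more numerous. Each line joins the 2 values of 1 mouse; Cox4i2 and Ndufa4l2 are higher on the mural side in 4 of 4 mice.

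Cox4i2 held 215, 233, 160.3 and 282 CPM in the cells with more mural marker UMIs of mice 3, 4, 30 and 34, and 24.96, 82.8, 56.5 and 69.9 CPM in those with more endothelial marker UMIs. Ndufa4l2 held 631, 434, 361 and 491 CPM and 125, 140.1, 147 and 170.1 CPM, respectively. For both genes every mural value lay above every endothelial value, whereas Cox4i1 pooled over mice was close (1647 and 1584 CPM) and Ndufa4 was lower on the mural side (559.8 and 717 CPM). A UMI of Cox4i2 was found in 27.1% of the cells with more mural UMIs and in 5.42% of those with more endothelial UMIs, against 0.355% of astrocytes, where free RNA would give a background (median depths 1281, 1012 and 851 UMIs). The division is a range cut from a marker score, chosen after these levels were seen. With the more endothelial cells alone, 39 of 97 members were lower and 6 higher than in astrocytes, where 59.5% of 6605 genes passed in either direction. None of the 22 calls of mt- genes and of members picked at either end of this comparison was lost.

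Of the 8 types, tanycytes had the highest mean level of a further group of isoforms of complex IV. Cox6a2 and Cox7a1 are known as the heart and skeletal muscle isoforms, and Cox6b2 as the testis isoform. Cox6a2 (chr7:128205435-128206387) held 52.6, 63.5, 46.3 and 46.5 CPM in tanycytes, 7.25, 19.3, 16.0 and 8.997 CPM in astrocytes and 9.70, 8.66, 6.33 and 6.01 CPM in ependymal cells, and all tanycyte values were above all others. Its log2 fold change was 2.24 ± 0.20 against astrocytes and -2.82 ± 0.27 for ependymal cells against tanycytes. Cox6a2 and Cox7a1 reached the count filter only in the comparisons with tanycytes, so their fold changes are likewise a description. Cox6b2 held 88.0, 65.8, 35.8 and 79.0 CPM in tanycytes and 19.4, 11.5, 8.44 and 24.1 CPM in ependymal cells (-2.09 ± 0.21), and Cox7a1 26.5, 24.95, 35.8 and 24.1 CPM in tanycytes against 11.3, 8.99, 2.00 and 12.0 CPM in astrocytes (1.36 ± 0.24). These are low levels, and the common isoforms showed smaller differences: Cox6a1 was slightly lower in tanycytes than in astrocytes (-0.25 ± 0.07), Cox6b1 slightly higher (0.25 ± 0.07) and Cox7a2 did not pass (0.03 ± 0.07). Itgad, on the opposite strand at the Cox6a2 locus, stood at 0.406 CPM in tanycytes and 37.0 CPM in oligodendrocytes, where Cox6a2 was near 7 CPM. Cox6b2 was also higher in COPs (34.1, 44.1, 52.6 and 50.7 CPM) than in oligodendrocytes (15.1, 14.2, 4.11 and 17.3 CPM, with -1.33 ± 0.29 for oligodendrocytes). Its ranges in tanycytes and COPs overlapped, and in mouse 30 COPs were the higher (52.6 against 35.8 CPM). Among the 68 vascular leptomeningeal cells, of which 44 came from mouse 30 and at most 12 from any other mouse, a UMI of Cox6b2 was found in 20.6% and of Cox7a1 in 8.82%, against 8.26% and 3.23% of tanycytes (median depths 1275 and 1143 UMIs). Cox8b had at most 1.60 CPM in any of the 8 types.

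**Figure D5:**
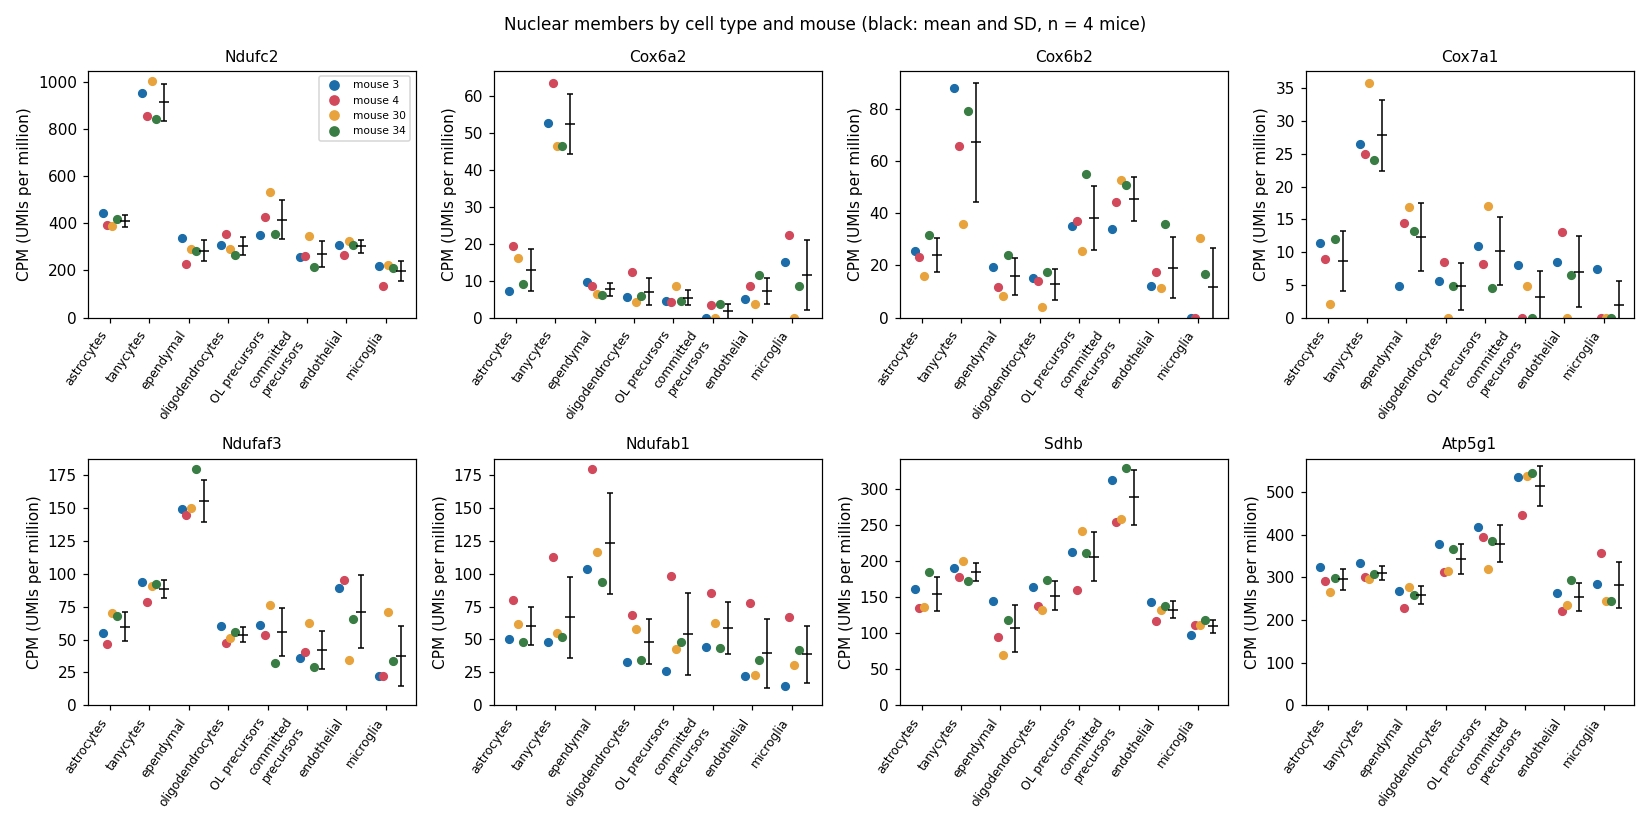
Levels of 8 nuclear members in CPM by cell type. Coloured points are mice and black marks the mean and SD (n = 4 mice). Ndufc2, Cox6a2, Cox6b2 and Cox7a1 have their highest mean of these types in tanycytes, Ndufaf3 and Ndufab1 in ependymal cells, and Sdhb and Atp5g1 in COPs.

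The 3 genes for the c subunit of complex V did not share a pattern. Atp5g1 had its highest mean in COPs (514 ± 46.6 CPM, SD, n = 4), as had Atp5g2 (594 ± 72.4 CPM), whereas Atp5g3 had it in OPCs (368 ± 80.6 CPM). Between tanycytes and astrocytes Atp5g2 was higher (0.28 ± 0.08), Atp5g3 lower (-0.27 ± 0.08) and Atp5g1 did not pass (0.04 ± 0.08). In complex II, which has no mitochondrial subunit, Sdhb was the member that differed in most comparisons: it passed in 5 of 6, whereas the membrane anchors Sdhc and Sdhd did not pass in any (lowest adjusted p 0.161 and 0.124 by edgeR). Sdha, the flavoprotein of complex II, was lower in endothelial cells than in astrocytes (-0.42 ± 0.12) and higher in oligodendrocytes than in COPs (0.65 ± 0.14), opposite to Sdhb in the latter comparison. Of the core subunits of the other complexes, Uqcrc1 of complex III and Atp5b, the catalytic subunit of complex V, were lower in ependymal cells (-0.50 ± 0.15 and -0.60 ± 0.11) and in tanycytes (-0.28 ± 0.11 and -0.35 ± 0.08) than in astrocytes.

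Genes around the respiratory chain were examined in lists chosen by function. Of 13 genes of the tricarboxylic acid cycle, which supplies the chain with electrons, 7 passed as lower in tanycytes than in astrocytes (24.7% of all genes were lower there) and 8 in endothelial cells than in astrocytes (29.9%). Between ependymal cells and astrocytes, 5 were lower and 2 higher, against 27.7% and 29.2% of all genes, and between ependymal cells and tanycytes 1 was lower and 3 higher, against 21.3% and 24.9%. Along the oligodendrocyte lineage, 2 of 12 were lower in COPs than in OPCs (23.8% of all genes). In oligodendrocytes 2 of 12 were higher and 2 lower than in COPs (28.3% and 26.8%). Cs, citrate synthase, was lower in all 3 types (log2 fold changes of -1.03 ± 0.12, -1.18 ± 0.16 and -1.31 ± 0.16 in tanycytes, endothelial and ependymal cells). The 2 genes higher in ependymal cells were Idh3a (0.70 ± 0.15) and Ogdh (0.64 ± 0.14), the latter encoding a subunit of the oxoglutarate dehydrogenase complex. Among 6 regulators of mitochondrial biogenesis, Ppargc1a, the coactivator PGC-1 alpha, was lower than in astrocytes in tanycytes (-1.80 ± 0.13), ependymal cells (-0.59 ± 0.14) and endothelial cells (-2.70 ± 0.22), higher in ependymal cells than in tanycytes (1.25 ± 0.17), and lower in COPs than in OPCs (-2.41 ± 0.36). Esrra, the estrogen-related receptor alpha, was lower in ependymal cells (-1.69 ± 0.28), tanycytes (-1.33 ± 0.22) and endothelial cells (-0.92 ± 0.30) than in astrocytes. In each of these 3 comparisons 2 of 4 regulators tested passed, both lower, where 27.7%, 24.7% and 29.9% of all genes were lower. Between ependymal cells and tanycytes 1 of 3 tested passed (24.9% of all genes were higher). Between COPs and OPCs only 1 was tested (23.8% lower), and between oligodendrocytes and COPs none was. Of 11 genes for the expression of mitochondrial DNA, 4 of 10 tested were higher in tanycytes than in astrocytes, against 26.8% of all genes, among them Tfam, the packaging factor of mitochondrial DNA (0.48 ± 0.18). In the other comparisons fewer of this list were tested. In ependymal cells 2 of 7 were higher than in astrocytes (29.2% of all genes) and 2 of 8 lower than in tanycytes (21.3%). In endothelial cells 1 of 4 was lower than in astrocytes (29.9%). Of 3 tested in oligodendrocytes against COPs, 1 was higher and 1 lower (28.3% and 26.8%). The 2 tested between COPs and OPCs, Slirp and Ssbp1, did not pass (adjusted p 0.345 and 0.91 by edgeR). Among 7 genes of exchange across the mitochondrial membranes, Slc25a4, an ATP/ADP carrier, was lower in ependymal cells than in tanycytes (-0.79 ± 0.10), lower in COPs than in OPCs (-0.50 ± 0.09) and higher in oligodendrocytes than in COPs (0.39 ± 0.09). Of this list 3 of 7 were lower in the first comparison (21.3% of all genes) and 1 of 6 in the second (23.8%), and none was higher. In the third 2 of 6 were higher and 1 lower (28.3% and 26.8%). A list of 8 electron carriers and further subunits held Cycs, cytochrome c, which was higher in COPs than in OPCs (0.51 ± 0.14). There 1 of 7 tested was higher and 3 lower, against 22.6% and 23.8% of all genes. Cycs was lower in ependymal cells than in tanycytes (-0.44 ± 0.13), where 1 of 8 was higher and 4 lower, against 24.9% and 21.3%. Of 27 further assembly genes for complexes I and III to V, 18 were tested between ependymal cells and tanycytes, where 8 were lower and 2 higher, against 21.3% and 24.9% of all genes. Against astrocytes, 7 of 17 were lower and 3 higher in ependymal cells (27.7% and 29.2% of all genes). In tanycytes 4 of 23 were lower and 6 higher (24.7% and 26.8%), and in endothelial cells 3 of 15 were lower and 1 higher (29.9% and 30.6%). The 7 tested between COPs and OPCs did not pass (lowest adjusted p 0.0765 by edgeR, for Cox17), and 4 of 8 were higher and 3 lower in oligodendrocytes than in COPs (28.3% and 26.8% of all genes).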

How the data were processed

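Single-cell counts came from 3′ droplet libraries of the hypothalamus of 4 mice treated with FGF1 R50E. Per the labels, the submitters' processing notes name Cell Ranger 1.2 and Seurat and the builds GRCm38, mm10 and GRCh38; the annotation and the use of strand in counting are not given in the sources that were used. The deposited values were raw UMI counts per gene and cell, with cell type labels and a mitochondrial percent per cell that the authors deposited beside them. The lowest total of a cell was 487 UMIs and the highest mitochondrial share 19.98%. No deposited cell was called a doublet by the authors, and no doublet caller was run. Cells of 12 libraries that are not among the labelled samples were left out.

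Sums of counts over the cells of a type in a mouse were formed and expressed as CPM or percent of all UMIs. A type needed 20 cells in every mouse, so vascular leptomeningeal cells (68 cells) were left out. Pairs of types were tested with edgeR 4.0.16 (limma 3.58.1, R 4.3.3; quasi-likelihood, TMM, filterByExpr, Benjamini-Hochberg adjustment over all genes tested), with mouse as a block because the same animals gave both types. With 4 mice an exact sign test could not give a p under 0.125, so class sums were not tested. With the block, p-values measure how far the difference between 2 types within a mouse varied over 4 mice. The spread of each gene was drawn toward that of the other genes. They do not measure the spread between mice that the SDs give. The SDs and shares do not cover free RNA. On simulated counts with 200 changed genes among 7962 to 11481, the test recovered 83% to 99% of 2-fold changes over the 6 comparisons. It recovered 46% to 63% of 1.5-fold changes, and 1.26% to 6.54% of calls were false. In the data, 46.3% to 60.5% of all genes tested passed. Recovery and false calls with such a share of changed genes were not tested. Tables and figures were made with Python 3.11.15, numpy 2.4.6, pandas 2.3.3, scipy 1.17.1 and matplotlib 3.10.9, and DESeq2 1.42.0 served as an alternative. Gene positions are from the mouse GENCODE annotation on GRCm38.

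Named genes were all mt- genes, up to 6 members at each end of a comparison that passed with the same sign in every mouse, fixed isoform groups, the complex II subunits and a core subunit of each other complex. The members, lists and tests were chosen with earlier results of these data known. Alternatives comprised other scalings, filters, tests and cell selections and leaving out each mouse; the scaling by library totals and the division of the endothelial label were chosen after seeing the data.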

Additional observations from a re-analysis of the deposited data

Results flagged for a closer look

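Of 83 values of 4 mice that were examined for a mouse far from the others, 5 had a gap to the nearest mouse that exceeded Dixon's criterion for 4 samples, as a share of the whole range, and chance alone gives such a gap in about 1 in 20 groups. Mouse 30 had the lowest nuclear share in astrocytes, at 2.85% against 3.22 to 3.30% in the others (gap ratio 0.83). Mouse 4 stood apart in 3 values: Ndufab1 in tanycytes, at 112 CPM against 48.2 to 54.8 CPM (0.897), Atp5g1 in COPs, at 445 CPM against 534 to 543 CPM (0.902), and Ndufb4 in COPs, at 194 CPM against 228 to 235 CPM (0.841). Mouse 34 had the highest Ndufaf3 level in ependymal cells, at 179 CPM against 144 to 149.8 CPM (0.846). Leaving out the mouse concerned did not end the call of Ndufab1, Atp5g1, Ndufb4 or Ndufaf3 in the comparisons that rest on these values.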

How the results depend on the processing

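No mt- gene, and no member picked at either end of a comparison, changed direction under the alternatives run. The isoform groups, complex II subunits and core subunits were not counted here unless they were also picked at an end. Without the mouse block, which pairs cell types of the same animal, 43 members passed between ependymal cells and tanycytes in place of 70 (39% of all genes in place of 46.3%), and 36 between tanycytes and astrocytes in place of 58 (44.7% in place of 51.6%). With the DESeq2 Wald test, 26 passed between COPs and OPCs (50 with edgeR; 29.4% of all genes in place of 46.5%) and 31 between endothelial cells and astrocytes (51; 44.3% in place of 60.5%), and 1 fit over all cell types gave 32 between COPs and OPCs (30.8% of all genes). Among the calls of tanycytes against astrocytes the higher share became 65.2% in place of 51.7% without the mitochondrial genes in the table (30 higher, 16 lower), which takes 13 lower calls away, but 43.8% without mouse 3 (21 and 27) and 44.4% with cells of at most 15% mitochondrial UMIs (24 and 30), where over all genes it was 49.5% to 52%; in oligodendrocytes against COPs it was 83.3%, 56.6% with library totals (30 and 23) and 93.6% with DESeq2 (44 and 3), where over all genes it was 51.3%, 33.1% and 52.9%; in COPs against OPCs it was 10%, 25% with 1 fit over all types (8 and 24) and 20% without the filter (7 and 28), where over all genes it was 48.7%, 47% and 44.3%. Library totals moved the median of all genes from -0.02 to 0.09 in ependymal cells against astrocytes. With cells of at most 15% mitochondrial UMIs, the mitochondrial share was 12.7% in astrocytes, 11.0% in tanycytes, 9.10% in ependymal cells, 11.7% in oligodendrocytes, 8.97% in endothelial cells and 12.1% in microglia, and the ratio 4.07 in astrocytes, 3.82 in oligodendrocytes and 5.31 in microglia. Without the 3 mitochondrial genes of highest level the share was 6.09% in astrocytes, 4.63% in tanycytes, 3.84% in ependymal cells, 5.47% in oligodendrocytes, 5.12% in OPCs, 3.29% in COPs, 4.12% in endothelial cells and 5.53% in microglia. As a mean of the cells' own shares it was 11.1% in ependymal and 11.0% in endothelial cells, and 9.47% in endothelial cells of 800 UMIs or more. Per UMI outside mitochondrial genes, which removes them from the total, the nuclear share was 3.72% in astrocytes, 3.86% in tanycytes, 3.15% in ependymal cells, 3.58% in oligodendrocytes, 3.99% in OPCs, 3.41% in COPs, 3.34% in endothelial cells and 2.68% in microglia. Of 127 tests of mt- genes and of members at the ends of comparisons, 107 kept their side of the threshold without the block and 20 lost their call. With 1 mouse left out, 114 to 125 kept it. The cause of these shifts was not tested. At these depths Ndufaf6, Cox7b2 and Cox8b had too few UMIs to be tested.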

Other observations

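Further mitochondrial genes separated the libraries of mice 4 and 30 from those of mice 3 and 34, given here as values of single mice. Averaged over the 8 cell types, mt-Nd3 made up 0.717, 1.39, 1.09 and 0.850% of the mitochondrial UMIs in mice 3, 4, 30 and 34, mt-Atp8 0.309, 0.515, 0.654 and 0.291%, mt-Atp6 19.4, 21.6, 22.2 and 19.1%, and mt-Co1 23.9, 21.2, 20.7 and 23.9%. mt-Nd4l and mt-Nd5 were higher in both mice 4 and 30 in 7 of 8 types, mt-Co2 in 5 and mt-Nd4 in 4, whereas mt-Nd6 was lower in 5 of 8. The labels state that libraries shared sequencing flow cells without naming which, and no cause was tested.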
